A study of Mus musculus with 2 samples.

Results

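The genes described here serve MHC class I antigen presentation, and they were taken as the rows of the deposited count matrix with the symbols H2-K1, H2-D1, H2-Q4, B2m, Tap1, Tap2, Tapbp, Psmb8, Psmb9 and Nlrc5. All 10 were found among the 17492 genes of the matrix, and 9 of them reached 50 counts summed over both libraries. They were measured by single-cell RNA sequencing of mouse corneal epithelium, the layered cell sheet that covers the front of the eye. All mice were male C57BL/6J aged 20 weeks. The control library pooled 4 corneas of 2 mice that had received citrate buffer. The diabetic library pooled 4 corneas of 2 mice given 1 injection of streptozotocin, a toxin of insulin-producing beta cells, at 160 mg/kg, and their blood glucose had stayed over 250 mg/dL for the 12 weeks of the study. Each group was a single pool, so the spread between animals is not seen and no test between the groups could be made. A difference between pools, an effect of high glucose and a direct effect of the drug cannot be told apart.

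MHC class I molecules show fragments of a cell's own proteins at its surface, where CD8 T cells read them. The proteasome cuts the fragments, the TAP transporter carries them into the endoplasmic reticulum, and chaperones load them onto a heavy chain paired with beta-2 microglobulin. Interferon-gamma raises most genes of the route, and it replaces catalytic subunits of the standard proteasome with those of the immunoproteasome. The corneal epithelium is renewed from basal cells that flatten as they move to the surface, and class I molecules on it are known as targets in corneal graft rejection.

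In the control library there were 9605 cells with 196359192 unique molecular identifiers (UMIs, 1 for each captured RNA molecule) and in the diabetic library 8203 cells with 171030636 UMIs. The median cell had 16487 and 17677 UMIs. The authors' cell table gives each cell 1 of 8 labels, spelled Basal, LSC, Wing, Squam, TAC1, TAC2, Conj and Immune. Squam cells led for the surface marker Psca, with 28930 and 40529 counts per 1000000 UMIs (CPM) in the control and diabetic library against 80.0 and 38.5 in Basal cells. Krt12, the corneal keratin, stood at 21398 and 21165 CPM over all cells. Conj cells carried the keratin Krt13 at 6957 and 9226 CPM. Krt13 was not particular to them, with 4754.5 and 4956.4 CPM in Squam cells. The Immune label held 26 control and 10 diabetic cells, too few for the comparisons, which used the 7 epithelial labels. A set of 18 cell barcodes occurred in both libraries, and the results without those cells are given with the other alternatives.

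Values are UMIs summed over the cells of a library or label and divided by the total of that sum, in CPM, control first. Ranges in parentheses are exact 95% intervals for counting error only. A gene was called higher or lower when its CPM differed by 1.5-fold or more, both libraries together held 50 or more counts, and the Poisson intervals of the CPM did not overlap. Counts from 3′ ends are not scaled to gene length, so levels are compared within a gene. The labels were made from the same cells' RNA, and differences between labels are descriptions.

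Over all cells, Psmb9, which encodes an immunoproteasome subunit, was 1.70-fold lower in the diabetic library (1.65 to 1.76), and it was the only 1 of the 10 genes past the rule of size. The rule called 2.8% of all 13846 measured genes lower and 5.98% higher. All 9 measured genes had a diabetic to control ratio below 1, as did 38.6% of all measured genes. For 8 of the 9 the Poisson intervals lay apart in the lower direction, as they did for 20.4% of all genes; the intervals are narrower for genes with more counts. The median log2 ratio of the 9 genes was -0.18, and the median of all measured genes was 0.07.

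The plasma membrane end of the route is formed by the heavy chains and B2m. H2-K1, a classical heavy chain, measured 197 CPM in the control and 182 CPM in the diabetic library, a ratio of 0.925 (0.912 to 0.939). H2-D1, the other classical heavy chain, measured 443 and 391 CPM, a ratio of 0.882 (0.874 to 0.891). Both differences exceed counting error and are far below the 1.5-fold of the rule. H2-Q4, a non-classical class I heavy chain, measured 8.36 and 8.29 CPM, and the interval of its ratio, 0.923 to 1.07, includes equality. B2m, the light chain that all class I molecules need, measured 28.2 and 23.97 CPM, a ratio of 0.849 (0.816 to 0.884). The libraries differed in cell makeup: Wing cells were 30.2% of control and 24.1% of diabetic cells, and Basal cells 26.1% and 29.0%. With equal weight for the 7 epithelial labels the log2 ratio went from -0.11 to -0.06 for H2-K1 and from -0.18 to -0.10 for H2-D1. It went from -0.01 to -0.14 for H2-Q4 and from -0.24 to -0.30 for B2m.

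The promoters of these genes share short sequence elements, and 30-base stretches are shown because H2-K1, H2-D1 and B2m, the last on another chromosome, carry a TGACG and an ATTGG at the same distance. H2-Q4 is shown beside them, and its stretch holds the ATTGG without that TGACG. The stretches come from RefSeq on GRCm38.p6, are written 5′ to 3′ on the gene's own strand, and have TGACG and ATTGG in capitals. TGACG is the core of a CREB site, and ATTGG is the reverse complement of CCAAT, the core of the NF-Y site in the class I promoter module.
H2-K1, chr17:34000359-34000388, minus strand: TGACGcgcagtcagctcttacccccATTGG
H2-D1, chr17:35262993-35263022, plus strand: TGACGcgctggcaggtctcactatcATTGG
B2m, chr2:122147609-122147638, plus strand: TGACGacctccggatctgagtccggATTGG
H2-Q4, chr17:35379513-35379542, plus strand: tgacttactggcagttctcacccccATTGG
In H2-K1, H2-D1 and B2m the elements were separated by 20 bases, and the ATTGG ended 12, 72 and 49 bases before the RefSeq start of transcription. RefSeq gives another start for H2-K1, and the ATTGG ended 26 bases before it. On either strand, that spaced pattern occurred in 30 of 32851 promoter windows of 250 bases (0.0913%). The pattern was chosen after the sequences were seen. H2-K1 and H2-D1 had the same base at 23 of the 30 positions, and H2-K1 and B2m at 13. These counts include the bases of TGACG and ATTGG, which match because the stretches were chosen by them. H2-Q4, without that TGACG, had the same base as H2-K1 at 23 positions and as H2-D1 at 23. Each element alone is common: CCAAT on either strand was in 33.9% of windows and TGACG in 17.8%. B2m alone among the matched genes held GAAA, any 2 bases and GAAA, the letters of an interferon response element, 139 to 130 bases before its start, and 2.98% of all windows held it. Psmb8 alone held TTC, any 3 bases and GAA, the letters of a STAT site, 97 to 89 bases before its start. Of all windows, 7.02% held those letters. Promoters were matched for 8 of the 10 genes, without Tap2 and Nlrc5. These are matches of letters, and no binding was measured.

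The heavy chains were higher in Squam than in Basal cells in both libraries, and on the CPM scale B2m was not. H2-D1 measured 179 and 176 CPM in Basal cells, 336 and 299 CPM in Wing cells, and 1020 and 980 CPM in Squam cells, with 700 and 642 CPM in Conj cells. The Squam level was 5.69-fold the Basal level in control and 5.58-fold in diabetic cells, and Squam, Conj, Wing and LSC stood apart from each other in both. H2-K1 measured 136 and 126 CPM in Basal cells and 323 and 340 CPM in Squam cells, a 2.38-fold and 2.71-fold difference. Its Wing and LSC levels and its Basal and TAC1 levels overlapped in control, as did its TAC1 and TAC2 levels in diabetic cells. H2-Q4 had another order, with 14.1 and 10.97 CPM in TAC2, 13.5 and 10.5 CPM in TAC1, 14 and 13.7 CPM in Squam, and 3.51 and 3.05 CPM in Conj cells. TAC2, Squam and TAC1 cells overlapped neighbour to neighbour at the top of that order in both libraries, and Wing and Conj cells overlapped at its foot.

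B2m was highest in LSC cells, at 83.5 CPM (71.8 to 96.6) and 66.9 CPM (59.6 to 74.8), and LSC stood apart from every other epithelial label. LSC cells also held Dcn, the only 1 of 6 listed stromal markers in the matrix, at 13.3 and 23.7 CPM. In the other epithelial labels Dcn measured 2.26 CPM or less. The part of stromal RNA in the LSC level of B2m was not tested. The lowest B2m level was in Wing cells, at 21.97 and 17.9 CPM. In Squam cells it measured 30.4 and 20.2 CPM and in Basal cells 32.7 and 26.3 CPM, so the Squam level was 0.928 and 0.767 of the Basal level. This order depends on the scaling. The median gene had a Squam to Basal ratio of -1.04 (log2) in control and -1.13 in diabetic cells on the CPM scale, and scaling to the median gene put B2m 1.91-fold and 1.68-fold higher in Squam. It raised the H2-D1 ratios in the same way, to 11.7 and 12.2. Such a scaling multiplies the ratios of all genes of a library alike, so it cannot change their order.

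**Figure D1:**
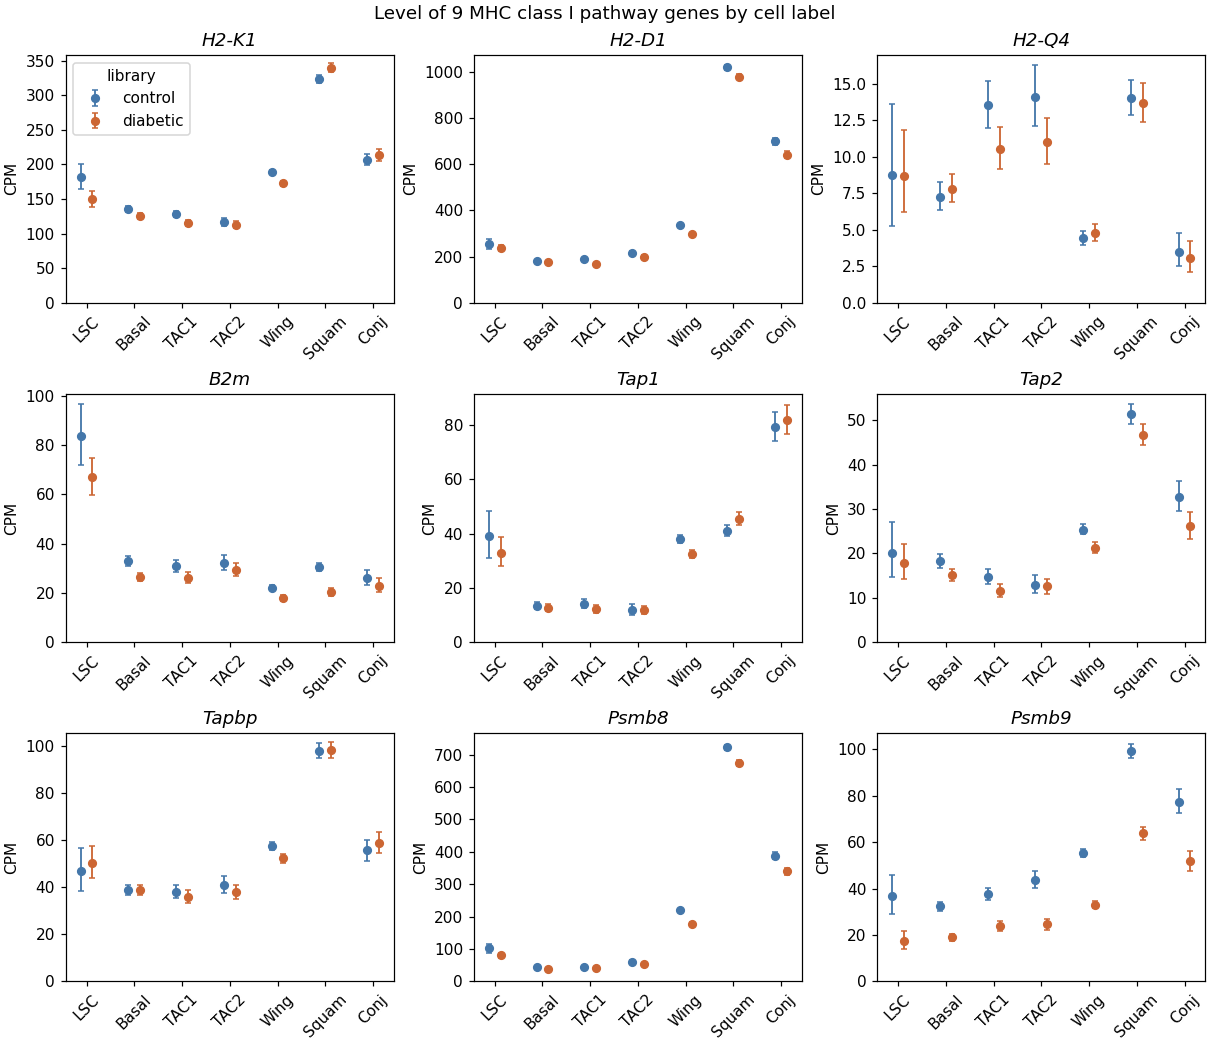
Level of 9 MHC class I pathway genes in 7 epithelial labels, in CPM on a linear axis from 0, 1 panel per gene, with control in blue and diabetic in orange and bars for the exact 95% Poisson interval. H2-D1 reaches 1020 and 980 CPM in Squam cells, B2m is highest in LSC cells at 83.5 and 66.9 CPM, and for Psmb9 the diabetic point lies below the control point in each of the 7 labels.

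Peptides enter the endoplasmic reticulum through the TAP transporter, a dimer of the products of Tap1 and Tap2, and tapasin, encoded by Tapbp, ties it to the heavy chain. Tap1 measured 32.8 and 29.6 CPM over all cells, a ratio of 0.903 (0.870 to 0.937). Tap2 measured 27.9 and 22.8 CPM, a ratio of 0.818 (0.785 to 0.852). Tapbp measured 59.1 and 54.8 CPM, a ratio of 0.927 (0.902 to 0.953). None of these passed the rule of size in any epithelial label.

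By label, the transporter genes parted at the conjunctival cells. Tap1 was highest in Conj cells at 79.4 and 82.0 CPM, ahead of Squam cells at 41.0 and 45.5 CPM and Basal cells at 13.4 and 12.7 CPM. Tap2 was highest in Squam cells at 51.4 and 46.8 CPM, ahead of Conj cells at 32.8 and 26.2 CPM and Basal cells at 18.3 and 15.1 CPM. The intervals of Conj and Squam cells were apart for both genes in both libraries, so the order of these labels was opposite for the partners of 1 transporter. Tapbp was highest in Squam cells, at 98.0 and 98.3 CPM, with Wing, Conj and LSC cells between 46.8 and 58.8 CPM. Its Basal level was 38.7 CPM in both libraries, the closest agreement between libraries of any member in any label.

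Psmb8 had the strongest contrast between Squam and Basal cells among the members. It encodes an immunoproteasome subunit that takes the place of Psmb5. It measured 44.4 and 37.8 CPM in Basal cells, 219 and 179 CPM in Wing cells, 388 and 340 CPM in Conj cells and 722 and 673 CPM in Squam cells. The Squam level was 16.3-fold the Basal level in control and 17.8-fold in diabetic cells. Over all cells Psmb8 measured 271 and 218 CPM, 1.24-fold lower in the diabetic library (1.23 to 1.26), and it did not pass the rule in any label. With cells thinned to 5000 UMIs its log2 ratio over all cells was -0.18, and with equal weight for the 7 epithelial labels it was -0.17, against -0.31 as summed.

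Between Squam and Basal cells, 8 of the 9 measured members were higher in Squam by the rule of size in both libraries, every one but B2m. The same held for 16.1% of all 11231 genes measured in both libraries, and 58.8% were lower in Squam. The Squam to Basal ratios were 3.06 and 3.59 for Tap1, 3.07 and 3.37 for Psmb9, 2.81 and 3.09 for Tap2, 2.53 and 2.54 for Tapbp, and 1.93 and 1.76 for H2-Q4. As a measure of RNA carried over between cells, Psca, which marks Squam cells, stood in Basal cells at 0.276% and 0.0951% of its Squam level, while Psmb8 stood at 6.14% and 5.61% of its own. With every cell thinned to 5000 UMIs, the median cell held 12 control and 11 diabetic UMIs of the members together in Squam, 7 and 6 in Conj, 4 and 4 in Wing, and 2 and 2 in Basal cells.

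The share of the inducible subunit in each immunoproteasome pair rose in the same direction. The capture of the genes of a pair may differ, so the shares are compared between labels and libraries and are not proportions of protein. Psmb8 made up 14.4% and 13.4% of the UMIs of Psmb8 and Psmb5 in Basal cells, 45.7% and 43.0% in Wing cells, 63.2% and 64.5% in Conj cells and 80.2% and 81.2% in Squam cells. Psmb10, which takes the place of Psmb7, made up 25.5% and 25.2% of its pair in Basal cells and 50.2% and 47.9% in Squam cells. Psmb9, which takes the place of Psmb6, made up 10.9% and 7.45% in Basal cells and 36.6% and 28.2% in Squam cells. On the CPM scale the constitutive partners did not follow: Psmb5 measured 265 and 243 CPM in Basal cells against 179 and 156 CPM in Squam cells. Psmb6 measured 264 and 235 CPM against 172 and 162 CPM, and Psmb7 110 and 103 CPM against 65.1 and 65.1 CPM. That direction depends on the scaling. The median gene had log2 ratios of -1.04 and -1.13, and the partners lay between -0.76 and -0.54. The share within a pair does not depend on the scaling.

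**Figure D2:**
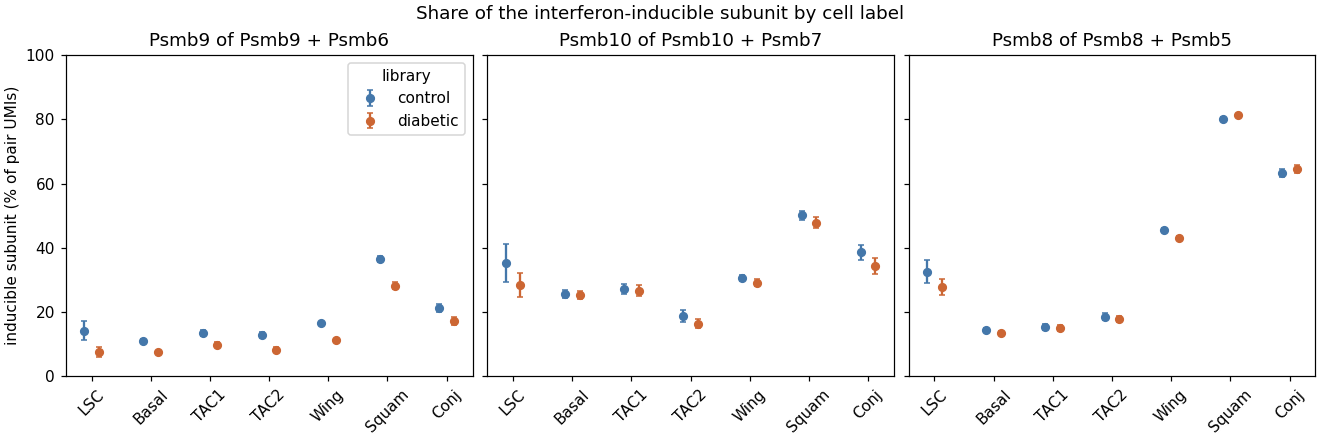
Share of the interferon-inducible subunit among the UMIs of each pair, in percent, by epithelial label, with control in blue, diabetic in orange and exact 95% Clopper-Pearson intervals. The Psmb8 share climbs from 14.4% and 13.4% in Basal to 80.2% and 81.2% in Squam cells with the libraries close together, while the Psmb9 share is lower in the diabetic library in every label.

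Psmb9 was the member that differed most between the libraries. It encodes the immunoproteasome subunit that replaces Psmb6, and the exchange favours the hydrophobic and basic peptide ends that class I grooves hold. Over all cells it had 11555 UMIs in control and 5916 in diabetic cells, or 58.8 CPM (57.8 to 59.9) and 34.6 CPM (33.7 to 35.5). The ratio was 0.588 (0.570 to 0.607), a log2 ratio of -0.77. By that ratio Psmb9 ranked 281 of 13846 measured genes from the lowest, or within 2.03%. The next lowest member was Psmb8 at a log2 ratio of -0.31, ranked 1243. The next lowest was Tap2 at -0.31 when cells were thinned, and B2m at -0.30 with equal weight for the 7 labels.

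The lower level was present in all 7 epithelial labels. Psmb9 measured 36.7 and 17.4 CPM in LSC cells, a 2.11-fold difference that rests on 80 UMIs in each library, with an interval of 1.53 to 2.92. In Basal cells it measured 32.3 and 18.9 CPM (1.70-fold lower), in TAC1 37.7 and 23.7 CPM (1.59-fold) and in TAC2 43.9 and 24.5 CPM (1.79-fold). In Wing cells it measured 55.4 and 33.0 CPM (1.68-fold), in Squam 99.2 and 63.8 CPM (1.56-fold) and in Conj 77.5 and 51.9 CPM (1.49-fold, just short of the rule). The intervals of the libraries lay apart in each of the 7 labels, as they did in the lower direction for 1.41% of the 7952 genes measured in all 7, and Squam, Conj and Wing were the top 3 labels in both libraries. A ratio below 1 in all 7 labels was found for 11.5% of those genes. Psmb9 was thus called lower in 6 of 7 labels. Which labels were called depended on the setting: Squam was not called under median-of-ratios scaling or without the 50 most abundant genes, LSC was not called at a minimum of 200 counts or after thinning, and Conj was called under 4 alternatives. Basal, TAC1, TAC2 and Wing were called under every alternative run by label. The share of all measured genes called lower was 2.61% in LSC, 2.38% in Basal, 1.52% in TAC1, 1.35% in TAC2, 2.59% in Wing, 7.75% in Squam and 1.95% in Conj cells. Of the 7952 genes, 17 were called lower in 6 or more labels (0.214%).

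Over the 7 epithelial labels, 63 of 70 pairs of member and label were measured, and 7 were called lower and 0 higher. Over all genes, 2.86% of such pairs were called lower and 2.51% higher. Of the 7 calls, 6 were Psmb9 and the other was B2m in Squam cells, 1.51-fold lower (1.36 to 1.66). In Squam cells 7.75% of all measured genes were called lower. The B2m call was lost under 5 alternatives: median-of-ratios scaling, totals without the 50 most abundant genes, removal of likely doublets, equal weight for every cell and thinning. Of the 63 pairs, 54 had a ratio below 1, against 48.5% of the pairs over all genes. The intervals of the libraries lay apart in the lower direction for 30 pairs (13.4% over all genes) and in the higher direction for 2 (12.5% over all genes), which were H2-K1 and Tap1, both in Squam cells.

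**Figure D3:**
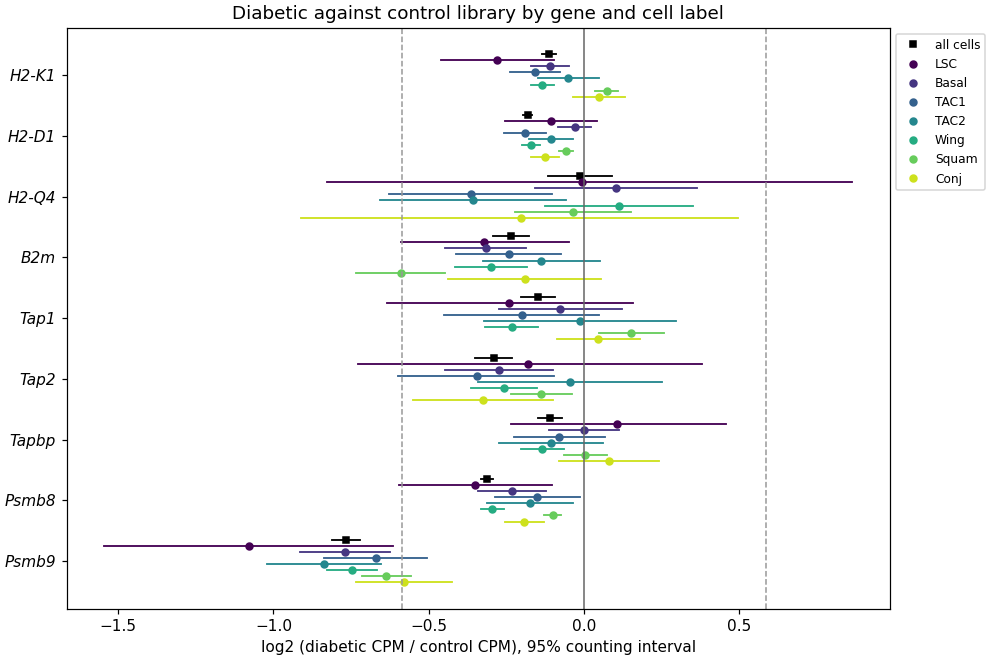
Log2 ratio of diabetic to control CPM for each measured member, over all cells (black squares) and in the 7 epithelial labels (coloured points), with exact 95% counting intervals; the solid line marks equality and the dashed lines a 1.5-fold difference. Psmb9 lies between -1.08 in LSC and -0.58 in Conj cells, while the other 8 members lie between the dashed lines except B2m in Squam cells at -0.59.

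Fewer cells had a detectable Psmb9 UMI at equal depth as well. After thinning to 5000 UMIs, which left out 486 control and 264 diabetic cells, 22.3% of control cells (21.5% to 23.2%) and 14.1% of diabetic cells (13.3% to 14.9%) held 1 or more. Before thinning, the shares were 53.2% and 40.6%. In Squam cells the thinned shares were 37.3% and 24.3%, and in Basal cells they were 15.1% and 8.97%. No epithelial label is known to lack Psmb9, so the share of cells with stray Psmb9 RNA could not be measured. A UMI of Cd74, a class II gene of immune cells, was held by 0.127% and 0.0431% of thinned Basal cells. Over all cells Cd74 measured 10.3 and 5.21 CPM against 58.8 and 34.6 CPM for Psmb9. The Cd74 share therefore sets no limit on stray Psmb9 RNA.

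**Figure D4:**
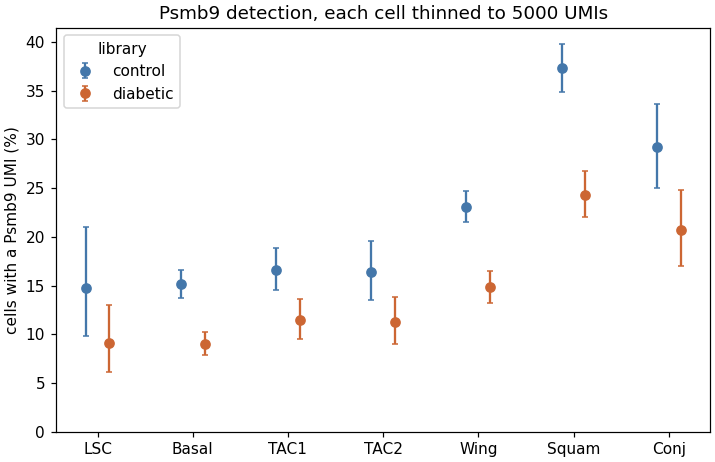
Share of cells with 1 or more Psmb9 UMIs after each cell was thinned to 5000 UMIs, in percent, by epithelial label, with control in blue, diabetic in orange and exact 95% Clopper-Pearson intervals. Squam cells have the highest shares, 37.3% and 24.3%, and the diabetic point is below the control point in each label. In LSC and TAC2 cells the intervals of the libraries overlap.

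Immune cells, where Psmb9 measured 156 and 127 CPM on 15 and 4 UMIs, were fewer in the diabetic library, with 0.271% of control and 0.122% of diabetic cells under the Immune label. All 10 listed markers of myeloid and dendritic cells were in the matrix, and their summed level was 4.07 and 2.62 CPM over all cells. Within epithelial labels it ranged from 0.180 to 1.49 CPM in control and from 0.360 to 1.95 CPM in diabetic cells, against 6443 and 10668 CPM in Immune cells. Of 10 listed T and NK cell markers 2 were in the matrix, and they summed to 0.525 and 0.579 CPM. When the Immune cells and every cell with a Ptprc or Cd74 UMI were left out (51 control and 21 diabetic cells), the Psmb9 log2 ratio was -0.76 and the same 6 labels were called lower.

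Psmb9 and Tap1 are read from a shared promoter region, and their results differed. The annotation (GENCODE M21, GRCm38) places Psmb9 at chr17:34181987-34187764 on the minus strand and Tap1 at chr17:34187553-34197225 on the plus strand, overlapping at their 5′ ends. Their RefSeq starts have 225 bases between them. The 30 bases around the TGACG between the starts are shown, on the Tap1 strand, because both genes are read away from them.
Tap1 and Psmb9, chr17:34187458-34187487, plus strand: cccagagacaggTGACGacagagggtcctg
The TGACG lies 86 to 82 bases before the Tap1 start and 144 to 140 before the Psmb9 start. Over all cells the ratio was 0.903 for Tap1 and 0.588 for Psmb9. In Squam cells Tap1 measured 41.0 and 45.5 CPM, a ratio of 1.11 (1.03 to 1.196), where Psmb9 had a ratio of 0.643 (0.609 to 0.679). In Conj cells, where Tap1 was highest, the ratios were 1.03 for Tap1 and 0.670 for Psmb9. Psmb8 at chr17:34197721-34201454 and Tap2 at chr17:34203527-34216321 follow Tap1 on the same strand, with ratios of 0.806 and 0.818. A window of 100000 bases on each side was centred on Psmb9, so the call of Psmb9 itself came with the choice of window. Among the 10 genes of the matrix in it, Psmb9 included, 9 were measured and 0 called higher over all cells. Called lower were 3, against 2.8% of all genes. Besides Psmb9 these were the class II genes H2-Ab1 and H2-Aa, whose UMIs came mostly from the few Immune cells: 867 of 923 control and 413 of 417 diabetic UMIs of H2-Ab1, and 580 of 652 and 331 of 333 of H2-Aa. Within Immune cells both were higher in the diabetic library, at ratios of 1.46 and 1.75. Corneal epithelial markers summed to 23221 CPM in control and 2229 CPM in diabetic Immune cells, and the part of such RNA in these ratios was not tested.

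Nlrc5, the transactivator of class I genes, was at the limit of detection. It had 8 UMIs in 7 control cells (0.0407 CPM) and 0 UMIs in diabetic cells, which allows up to 0.0175 CPM by a floor of 3 counts. The control UMIs fell in Wing (3), Squam (2), Conj (2) and LSC (1) cells. At this depth its level cannot be compared by label.

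Other genes of the route were given from lists. Of 8 loading chaperones and trimming enzymes 0 were called in either direction over all cells, with a median log2 ratio of -0.08; Calr measured 200 and 185 CPM. Of 7 other proteasome genes 0 were called, and all 7 had intervals apart in the lower direction, against 20.4% of all genes. Their median log2 ratio was -0.14, against 0.07 for all genes, and the lowest ratio was that of the activator subunit Psme2, at 294 and 224 CPM. The third inducible catalytic subunit, Psmb10, measured 44.4 and 38.1 CPM, a ratio of 0.859 that was nearer to the ratio of Psmb8 than to that of Psmb9. Psmb6, the subunit Psmb9 replaces, measured 253 and 232 CPM, a ratio of 0.916. Of 14 other heavy chain genes 11 were in the matrix and 6 measured, and 2 of the 6 were called higher, against 5.98% of all genes. These were H2-Q2 (0.392 and 0.608 CPM) and H2-Q7 (0.341 and 0.561 CPM). Both levels are low, and no gene of this list was called in any epithelial label.

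Of 15 transcription factors of class I promoters and genes of the interferon-gamma receptor pathway, 0 were called over all cells. Between Squam and Basal cells 5 of the 15 were higher and 4 lower in Squam in both libraries, against 16.1% and 58.8% of all genes. The higher ones were the interferon-gamma receptor genes Ifngr1 and Ifngr2, the factors Irf1 and Irf2, and Socs1. Irf1, which interferon-gamma induces, measured 21.9 and 20.9 CPM in Basal and 419 and 458 CPM in Squam cells. The lower ones were Creb1, Nfyb, Nfyc and Rfxap, which encode factors of the class I promoter module. Creb1 measured 26.5 and 24.4 CPM in Basal and 12.02 and 13.2 CPM in Squam cells. The Squam to Basal ratios of Nfyb, Nfyc and Rfxap ranged from 0.306 to 0.577. The median gene was lower in Squam too, at log2 ratios of -1.04 and -1.13. Nfyb and Rfxap lay below it in both libraries. Creb1, at -1.14 and -0.88, and Nfyc, at -0.86 and -0.79, did not. Rfx5, Rfxank and Nfya, also factors of class I promoters, were called in neither library. Socs1, an inhibitor of interferon-gamma signalling, was called lower in Basal cells at 3.32 and 2.10 CPM.

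Across the 14 sums of 7 labels in 2 libraries, H2-K1 and Tap2 had the closest patterns of any pair of members (Pearson r = 0.98 of log2(CPM + 1)) and H2-Q4 and Tap1 the most opposed (r = -0.58). The sums share libraries and depth, so the coefficients describe and test nothing. With the mean of the members, H2-K1 had r = 0.97, Psmb8 0.97, Psmb9 0.84 and B2m -0.10. Outside the members, the 5 closest of 6914 genes were Slc5a1 (r = 0.99), Gdpd5 (0.98), Slc1a1 (0.98), Phlda1 (0.98) and Map1lc3a (0.98). Slc5a1, a sodium-glucose cotransporter, measured 1.30 and 0.266 CPM in Basal and 317 and 266 CPM in Squam cells.

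Some values carry limits of counting. Of the 441 windows of 60 bases in the last 500 transcript bases, 109 of H2-Q4 (24.7%) and 22 of H2-D1 (4.99%) occurred in another gene's transcript, and 0 of the other 8 members, so the H2-Q4 level is uncertain. Outside the members, 18 windows of H2-Q2 (4.08%) and 16 of H2-Q7 (3.63%) did so. Tapbp overlaps the protein-coding gene Zbtb22 on the same strand. On the other strand, B2m at chr2:122147686-122153083 overlaps Patl2, Psmb9 and Tap1 overlap each other, and Tapbp, Psmb8, Tap2, H2-Q4 and Nlrc5 overlap noncoding genes. The levels of these genes are uncertain to that extent. The sources used here do not say whether the counting used strand.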

How the data were processed

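Whole UMI counts per gene and cell were deposited by the authors, not normalized. Libraries were made with the Chromium Next GEM 3′ v3.1 kit, per the labels' protocols. Per the submitters' processing notes, Cell Ranger 5.0.0, Seurat 4 and mm10 were used, and their roles are not stated there. Group and label of each cell came from the authors' deposited cell table, as other, non-numeric columns. For the filters on cells and the meaning of the labels' abbreviations, nothing is given in the sources used here.

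Counts were summed per library and label and divided by the sum's total (CPM). Intervals are exact: Poisson for a CPM, conditional binomial for a ratio, Clopper-Pearson for a share. The rule of size was run over all genes with 50 or more summed counts, to give the background share. With 1 library per group no test or p-value was computed. Scrublet called 0 doublets by its automatic threshold, which did not work here, so all cells stayed in; an alternative left out the top 8% of scores, 791 control and 683 diabetic cells. The calculations were tested on simulated counts.

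All 10 members are named. Other genes came from pathway lists: the constitutive subunits, and any list gene past the rule, up to 4 per list and direction; Calr, Psme2, Irgm1, Igtp and the regulators named for Squam against Basal cells were chosen after their values were seen. The genes most like the members were the 5 with the highest Pearson correlation with their mean, among genes of 20 CPM or more. The members and lists were chosen with earlier results of these data known. Alternatives were median-of-ratios scaling, totals without the 50 most abundant genes, a minimum of 200 counts or none, removal of doublets, of cells over 10% mitochondrial counts or of cells with immune RNA, equal weight for cells or labels, thinning to 5000 UMIs, and, chosen after seeing the data, removal of shared barcodes. Sums and doublet scores used scanpy 1.11.5 with pandas 2.3.3 and numpy 2.4.6, intervals scipy 1.17.1 and plots matplotlib 3.10.9, under Python 3.11.15. A gene of these lists is not reported here.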

Additional observations from a re-analysis of the deposited data

Results flagged for a closer look

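The direction of 2 members was opposite between labels, with counting intervals apart on both sides. H2-K1 was higher in diabetic Squam cells, at 323 and 340 CPM in control and diabetic (log2 ratio 0.073), and lower in LSC, Basal, TAC1 and Wing cells, of which Wing had 189 and 173 CPM. Tap1 was higher in diabetic Squam cells, at 41.0 and 45.5 CPM (log2 ratio 0.15), and lower in Wing cells, at 38.1 and 32.4 CPM. With 1 library per group the difference between labels was not tested, and none of these values reached a 1.5-fold difference. The median gene in Squam cells had a log2 ratio of -0.08 and in Wing cells of 0.04.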

How the results depend on the processing

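Psmb9 was the single member called over all cells under each of the 11 alternatives, with log2 ratios from -0.84 to -0.71. The count of calls over member and label was 6 or 7, but the called pairs changed: B2m in Squam was lost under 5 alternatives, Psmb9 in Squam under 2 and Psmb9 in LSC under 2, and Psmb9 in Conj was gained under 4. The number of members higher in Squam than in Basal cells was 8, and 9 under median-of-ratios scaling, which adds B2m. The median log2 ratio of the members, -0.18, became -0.25 under median-of-ratios scaling, -0.21 with no minimum of counts, -0.16 without likely doublets, -0.16 with equal weight for every cell and -0.14 with equal weight for the 7 epithelial labels. The cause of these shifts was not tested, apart from the missing minimum, which adds Nlrc5. Of 99 single-member values 97 stayed below 0, and the 2 above were H2-Q4 and Tap1, each at 0.03 at most. The 2 alternatives that change only the minimum of counts repeat each member's main ratio, so they add no support here.

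No paired analysis was possible because each group has 1 library, and no replicate was left out. Depth limits Nlrc5 in all labels, and the Psmb9 fold in LSC cells rests on 80 UMIs per library.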

Other observations

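Genes that interferon-gamma induces outside the class I route were lower in the diabetic library. Of 11 listed, 7 were in the matrix and measured, and 5 were called lower over all cells, with a median log2 ratio of -0.79. The rule called 2.8% of all genes lower. Gbp2, a guanylate-binding protein of cell-autonomous defence, measured 18.6 and 10.6 CPM in the control and diabetic library. Ifi47, an interferon-inducible GTPase, measured 13.9 and 7.07 CPM, most of it from Squam cells at 65.7 and 37.0 CPM. Cd274, which encodes the checkpoint ligand PD-L1, measured 34.0 and 22.01 CPM, and 162 and 119 CPM in Squam cells. Gbp7 measured 7.82 and 4.53 CPM and Gbp3 1.32 and 0.497 CPM. Irgm1, at 11.7 and 10.03 CPM, and Igtp, at 1.80 and 1.36 CPM, were not called over all cells. In Squam cells 5 of the 7 were called lower, against 7.75% of all genes measured there. Igtp was among those 5, at 1.36 and 0.294 CPM on 53 and 9 UMIs.

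Of 7 class II genes 6 were measured and 4 called lower over all cells, against 2.8% of all genes. Cd74, the invariant chain, measured 10.3 and 5.21 CPM, H2-Ab1 4.70 and 2.44 CPM, H2-Aa 3.32 and 1.95 CPM and H2-Eb1 4.21 and 2.77 CPM. The Immune label held 26 control and 10 diabetic cells, and they gave 1780 of the 2018 control and 874 of the 891 diabetic Cd74 UMIs. Within these cells Cd74 was higher in the diabetic library, at 18527 and 27834 CPM.

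B2m was far higher in Immune than in epithelial cells, at 677 CPM in control (65 UMIs) and 1274 CPM in diabetic cells (40 UMIs), or 24.2-fold and 53.7-fold the level of the epithelial labels together. H2-D1 was 2.00-fold and 2.36-fold higher there. The 6 corneal epithelial markers summed to 23221 CPM in control and 2229 CPM in diabetic Immune cells, so RNA of epithelial markers was higher in the control Immune cells.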
